A study of Mus musculus with 6 samples.

Results

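Serpins, cathepsins and cystatins are the genes of a large family of protease inhibitors, of the main lysosomal proteases and of the inhibitors that hold those proteases in check. They were compared between PICs and satellite cells of mouse hindlimb muscle. Members were taken by symbol, as every probe set of the array whose single gene symbol begins with Serpin plus a clade letter from a to i, is Cts plus 1 letter, or begins with Cst, with Serping1 left out. This gave 74 genes of 18193 on the array, measured by 109 probe sets. They were 39 serpins, 18 cathepsins and 12 cystatins, with 5 further genes that share the letters Cst only. Of these 5, 4 are Cstf genes, which encode factors that cleave the 3' end of messenger RNA, and Cstad is no cystatin gene either. Serpins of clade E were not analysed here.

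PICs are interstitial cells of muscle that were named for the protein PW1, and satellite cells are the stem cells of the muscle fibre. Both groups came from C57 black 6 mice 7 to 9 days old, with neither allele nor agent given in the labels. They were purified by flow cytometry on CD34 and Sca1, and each has 3 arrays labelled as biological replicates, made from 200 ng of total RNA per array. The labels do not say whether animals were pooled. All 9 fibro-adipogenic markers tested, among them Pdgfra, were higher in PICs, and all 9 satellite cell markers tested, among them Pax7, were higher in satellite cells.

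Serpins are proteins with an exposed loop that a target serine protease cuts, after which the protease is trapped in a covalent complex. Some serpins have lost this activity and act as chaperones or signals. Cathepsins are proteases that work mostly in the acid lysosome. Most are cysteine proteases, while Ctsd and Ctse encode aspartic proteases and Ctsa and Ctsg serine proteases. Cystatins block cysteine cathepsins by wedging into the active site, outside cells in the case of cystatin C and in the cytosol in the case of the stefins.

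Levels are log2 of the deposited GCRMA intensity, and differences are levels in PICs minus levels in satellite cells. Levels of different genes come from different probes and were not compared. A gene was tested if its level was above 4, called the low value level here, on at least 3 of the 6 arrays. It was called if its difference was at least 1 in size and its adjusted p (limma, over 10855 genes) was under 0.05. Of the 74 genes, 25 were tested, and 15 of these were called higher in PICs, where 16.7% of all genes tested were. A further 2, both Cstf genes, were called higher in satellite cells, where 13.0% of all genes tested were. Calls in either direction numbered 17 of 25, where 29.8% of all genes tested were called. The tested serpins, cathepsins and cystatins numbered 21, and none of these 21 was called higher in satellite cells. Their median difference was 1.31, and the median over all genes tested was -0.04. Serpinb1b and Serpinb6c passed the filter only through their PIC arrays, so they could enter these counts only as higher in PICs.

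**Figure D1:**
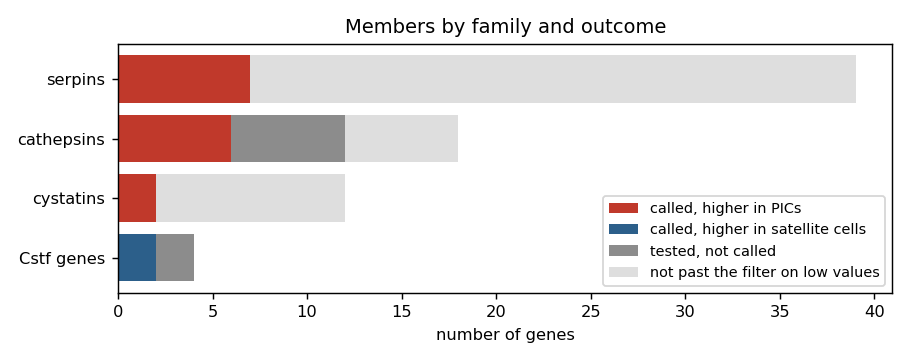
Number of genes (horizontal axis) in each family, split into those called higher in PICs, called higher in satellite cells, tested but not called, and not past the filter on low values. All 7 tested serpins and both tested cystatins were called higher in PICs, against 6 of 12 tested cathepsins and 16.7% of all genes tested. Serpinb1b and Serpinb6c, among the 7 serpins, passed the filter only through their PIC arrays, so they could be called only in this direction. Most serpins and cystatins lay under the low value level.

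All 7 tested serpins were called higher in PICs, where 16.7% of all genes tested were. Serpinb1b and Serpinb6c, among the 7, passed the filter only through their PIC arrays and could be called only in this direction. The 5 with a level measured in satellite cells were higher by 2.02-fold to 12.3-fold. The largest difference belonged to Serpinf1, which encodes pigment epithelium-derived factor, a secreted serpin that inhibits no protease and restrains blood vessel growth. Serpinf1 lay at 14.13, 14.26 and 14.17 in PICs, against 10.35, 10.01 and 11.35 in satellite cells. Satellite replicate 3 was the highest of its population, and the populations did not overlap. The mean was 14.19 ± 0.07 in PICs, against a mean of 10.57 ± 0.69 in satellite cells (SD, n = 3 arrays each). The difference was 3.62 (95% interval 2.82 to 4.42, limma, adjusted p = 0.000238), and a second probe set gave 4.44. The fibro-adipogenic marker Pdgfra was also highest in satellite replicate 3, at 10.07, with 9.00 and 8.81 on the other satellite arrays. The summed intensity of the 9 fibro-adipogenic markers was 92886 to 95939 on PIC arrays and 18039 to 25894 on satellite arrays, with satellite replicate 3 the highest. Among satellite arrays, Dpt and Clec3b of this list were instead highest in replicate 1. The part of the 9 markers in the Serpinf1 difference was not tested. In sorted populations measured in bulk, fewer cells of a type and less RNA per cell cannot be told apart.

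Serpinh1 encodes Hsp47, a chaperone of the endoplasmic reticulum that binds procollagen and inhibits no protease. It lay at 14.62, 14.83 and 14.71 in PICs, against 13.41, 13.80 and 13.90 in satellite cells. The populations did not overlap, and the difference was 1.02 (95% interval 0.63 to 1.40, adjusted p = 0.00205), just inside the 2-fold threshold. Both probe sets of the gene gave 1.02. The probe set used is marked as able to hybridise with related transcripts. The difference was under the threshold without PICs replicate 2 (0.96) or without satellite replicate 1 (0.87). Other genes of collagen folding were called in 11 of 16 tested members, all 11 higher in PICs, where 16.7% of all genes tested were, and the median difference was 1.41. They included P3h3 (2.85) and P3h1 (2.40), which encode prolyl 3-hydroxylases, P4ha2 (2.71), a subunit of prolyl 4-hydroxylase, and the lysyl hydroxylase gene Plod1 (2.54).

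The other serpins that were called belong to clade B, whose proteins stay inside the cell and protect it from proteases that leak or are injected. Serpinb9, the inhibitor of granzyme B, lay at 8.60, 8.57 and 8.93 in PICs, against 6.07, 5.88 and 5.98 in satellite cells. Arrays within each population lay close together and far from the other population. The difference was 2.73 (95% interval 2.39 to 3.06, adjusted p = 5.19e-05), and a second probe set gave 2.47. Granzyme B itself (Gzmb) lay at 2 on all 6 arrays, and none of the 7 T and NK cell markers on the array, Gzmb among them, exceeded the low value level on any array.

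Serpinb1a encodes an inhibitor of neutrophil elastase and related granule proteases. It lay at 8.77, 8.47 and 9.28 in PICs, against 7.92, 5.49 and 6.04 in satellite cells. The satellite array numbered 1 stood well above the other satellite arrays but under every PIC array. The difference was 2.35 (95% interval 0.87 to 3.84, adjusted p = 0.0172). The call was lost without PICs replicate 3 (2.13, adjusted p = 0.053) or satellite replicate 3 (2.13, adjusted p = 0.0576), and when genes of low values were kept in (adjusted p = 0.0877). Its close copy Serpinb1b lay at 5.46, 6.21 and 5.83 in PICs, against 2.58 on each satellite array. Satellite cells gave no measured level for Serpinb1b, which leaves only a lower bound of 3.57-fold on its excess in PICs. Its adjusted p of 7.71e-05 (limma) tests the fitted difference of 3.25 from identical satellite values, and does not test this bound.

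Serpinb6a, a widely made intracellular inhibitor of trypsin-like proteases, lay at 12.39, 12.58 and 12.40 in PICs, against 11.55, 11.45 and 11.34 in satellite cells. The difference was 1.01 (95% interval 0.73 to 1.30, adjusted p = 0.000585), at the threshold. Leaving out PICs replicate 2 gave 0.95, and leaving out satellite replicate 3 gave 0.96. The related Serpinb6c lay at 4.25, 4.81 and 6.34 in PICs, against 3.46 on each satellite array, a bound of at least 2.19-fold. The adjusted p (limma, 0.0288) belongs to the fitted difference of 1.67, taken against equal satellite values, and not to this bound. The bound was at least 1.44-fold without PICs replicate 3, and the fitted difference was then 1.07 in place of 1.67. Its PIC arrays were spread and close to the low value level, and its probe set is marked as able to hybridise with related transcripts. The Serpinb6c call was lost on leaving out PICs replicate 2 (adjusted p = 0.0565) or satellite replicate 1 (0.0707), 2 (0.0766) or 3 (0.0722).

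Most serpins that were not tested belong to groups of neighbouring genes. None of the 14 Serpina genes passed the filter, and none exceeded a level of 2.81 on any array. Serpina genes encode mostly plasma proteins made in liver, such as the alpha-1 antitrypsins, and the 6 hepatocyte markers on the array, albumin among them, were also under the low value level throughout. In the RefSeq annotation of GRCm38.p6, Serpinb genes lie on 2 chromosomes. Of the 11 that share a chromosome with Serpinb9, 5 passed and were called higher in PICs, where 16.7% of all genes tested were. Of these 5, Serpinb1b and Serpinb6c could pass only through their PIC arrays. The 7 on the other chromosome, among them Serpinb2 and Serpinb5, did not pass, with a highest level of 3.81. Antithrombin (Serpinc1), heparin cofactor II (Serpind1), alpha-2 antiplasmin (Serpinf2) and neuroserpin (Serpini1) did not pass either. Of the 32 untested serpins, 31 were under the low value level on every array. The exception was Serpinb6b, at 4.58 in satellite replicate 1 and at 3.58 or lower elsewhere.

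**Figure D2:**
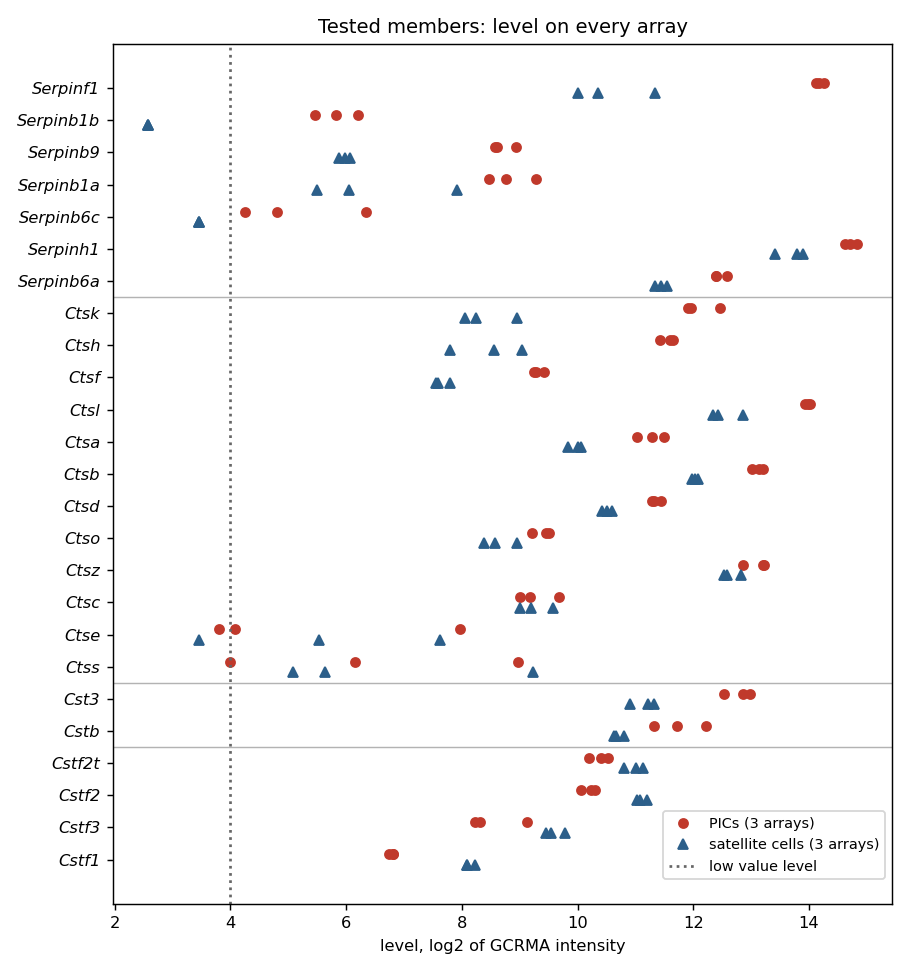
Level (log2 of GCRMA intensity, horizontal axis) of each of the 25 tested genes on every array, with PIC arrays as circles above satellite arrays as triangles, and the low value level as a dotted line. PIC arrays all lay above satellite arrays in 18 genes, as in 31.3% of all genes tested. For Serpinb1b and Serpinb6c, among the 18, this was fixed by the filter, which they passed only through their PIC arrays. Satellite arrays all lay above PIC arrays in the 4 Cstf genes, as in 33.2% of all genes tested. Ctsc, Ctse and Ctss overlapped.

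Plasminogen activators and thrombin are targets of several serpins. In the list of the plasminogen and thrombin systems, 7 of 15 tested genes were called, all 7 higher in PICs, where 16.7% of all genes tested were, and the median difference was 0.87. Tissue factor (F3), which starts clotting, differed by 4.05, and vitronectin (Vtn), a matrix protein that binds serpins, by 3.68. Tissue plasminogen activator (Plat) lay at 12.31, 12.51 and 12.92 in PICs, against 8.99, 8.68 and 9.88 in satellite cells, a difference of 3.40. The receptor gene Vldlr, whose protein takes up complexes of serpins with proteases, differed by 2.79. Urokinase (Plau), plasminogen (Plg) and prothrombin (F2) did not pass the filter. The thrombin receptor gene F2r was lower in PICs by less than the threshold (-0.65, adjusted p = 0.00681).

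Among cathepsins, 6 of 12 tested genes were called higher in PICs, where 16.7% of all genes tested were. These 6 were higher by 2.13-fold to 12.9-fold. Ctsk encodes cathepsin K, a cysteine protease that cuts fibrillar collagen and is best known from osteoclasts. It lay at 11.96, 12.46 and 11.91 in PICs, against 8.24, 8.05 and 8.96 in satellite cells. The populations were far apart, and the difference was 3.69 (95% interval 3.03 to 4.36, adjusted p = 0.000131). It stayed between 3.51 and 3.96 over the 16 alternative settings tried. On satellite arrays Ctsk, Ctsl and Ctsa were highest in replicate 3 and lowest in replicate 2. The other called cathepsins had another order, with Ctsh and Ctsf highest in replicate 1 and Ctsb in replicate 2. Pdgfra and the summed fibro-adipogenic markers had the same order as Ctsk. Not all 9 markers did, as Dpt and Clec3b were highest in replicate 1 and Cxcl14 was lowest there. The part of these markers in the differences was not tested.

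Ctsh, a lysosomal protease that trims amino acids from the ends of proteins, lay at 11.59, 11.66 and 11.43 in PICs, against 9.05, 7.79 and 8.55 in satellite cells. Satellite arrays were more spread than PIC arrays, without overlap. The difference was 3.10 (95% interval 2.35 to 3.84, adjusted p = 0.000313), and a second probe set gave 3.44. Ctsf, a further lysosomal cysteine protease, lay at 9.29, 9.43 and 9.26 in PICs, against 7.80, 7.55 and 7.58 in satellite cells. Its difference was 1.68 (95% interval 1.39 to 1.97, adjusted p = 0.000117).

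The general lysosomal proteases cathepsin L and cathepsin B differed less. Ctsl lay at 13.92, 13.99 and 14.01 in PICs, against 12.43, 12.34 and 12.85 in satellite cells, a difference of 1.44 (95% interval 1.05 to 1.82, adjusted p = 0.000471). A dimmer Ctsl probe set gave 0.54 and was not called (adjusted p = 0.13 over probe sets). Ctsb lay at 13.01, 13.13 and 13.21 in PICs, against 11.98, 12.08 and 12.03 in satellite cells, a difference of 1.09 (95% interval 0.83 to 1.35, adjusted p = 0.000313). Of its 5 probe sets past the filter, 4 were called higher in PICs, with differences up to 1.93.

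Ctsa encodes a serine carboxypeptidase that also shields the lysosomal enzymes beta-galactosidase and neuraminidase 1 in a complex. It lay at 11.03, 11.29 and 11.49 in PICs, against 10.004, 9.83 and 10.07 in satellite cells, a difference of 1.31 (95% interval 0.94 to 1.67, adjusted p = 0.000585). The genes of these enzymes, Glb1 and Neu1, named here after their values were seen, were called as well, at 1.36 and 1.26. Over the list of other lysosomal proteins, 11 of 35 tested genes were called, a share near the 29.8% of all genes tested that were called in either direction. All 11 were higher in PICs, where 16.7% of all genes tested were, and the median difference of the list was 0.72. The 4 largest were Acp5 (4.18), an acid phosphatase, the glycosidase genes Gaa (2.24) and Man2b1 (2.22), and Mitf (2.07), a transcription factor related to Tfeb. Acp5 lay at 5.46, 3 and 4 in satellite cells, in part at or under the low value level. Tfeb, a regulator of lysosomal genes, lay at 7.09, 6.98 and 6.97 in PICs, against 6.95, 6.97 and 6.86 in satellite cells, with a difference of 0.08 (adjusted p = 0.521).

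Ctsd, Ctso and Ctsz had an adjusted p under 0.05 but differed by less than the threshold. Ctsd, the main aspartic protease of the lysosome, lay at 11.31, 11.43 and 11.29 in PICs, against 10.60, 10.51 and 10.43 in satellite cells, a difference of 0.84 (adjusted p = 0.000884). It was the uncalled cathepsin nearest to the threshold. Ctso differed by 0.75 (95% interval 0.33 to 1.18) and Ctsz, a carboxypeptidase, by 0.45 (95% interval 0.09 to 0.82). All PIC arrays lay above all satellite arrays in each of the 3 genes, as in 31.3% of all genes tested. Ctsc encodes a dipeptidyl peptidase that activates granule proteases. It lay at 9.69, 9.18 and 9.00 in PICs, against 9.57, 9.00 and 9.20 in satellite cells. The populations overlapped, with a difference of 0.03 (95% interval -0.52 to 0.59). Ctsj, Ctsm, Ctsq and Ctsr, neighbouring genes whose proteases are known from mouse placenta, and Ctsw, known from T and NK cells, did not exceed a level of 2.81 on any array.

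**Figure D3:**
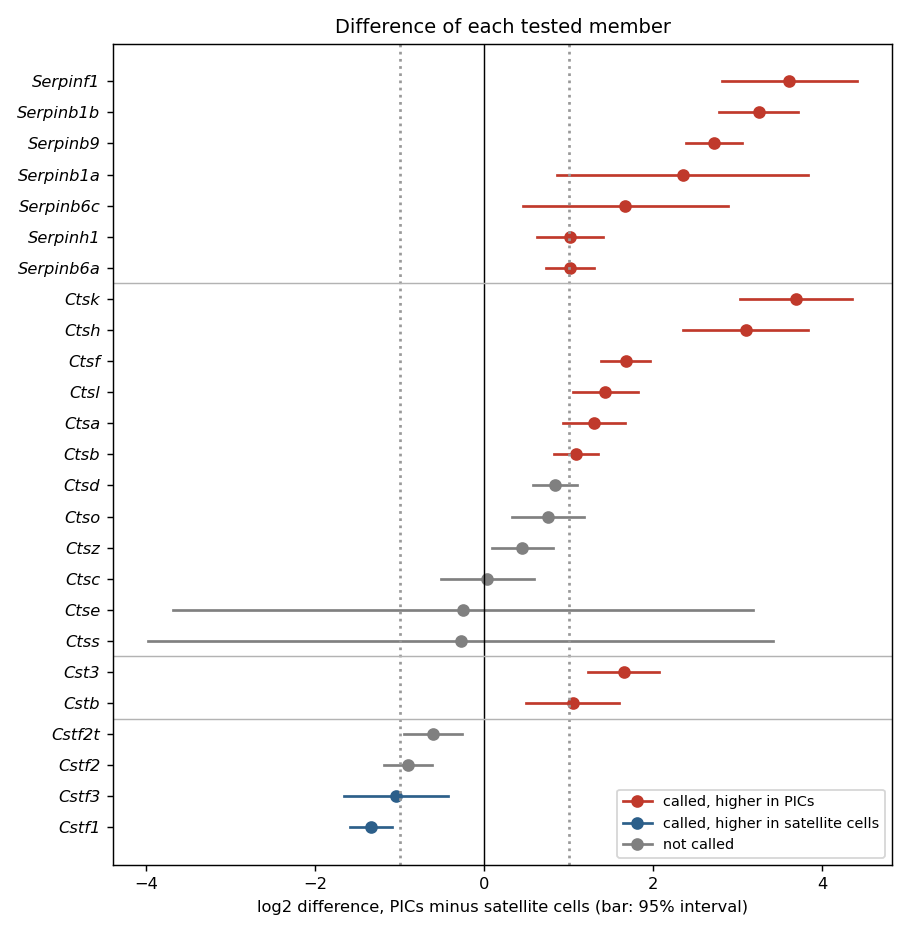
Log2 difference, PICs minus satellite cells (horizontal axis), of the 25 tested genes with 95% intervals from limma, with dotted lines at the 2-fold threshold. Ctsk (3.69) and Serpinf1 (3.62) lie farthest to the right, Cstf1 (-1.35) farthest to the left, and Ctse and Ctss have the widest intervals.

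Upstream sequence is shown for 4 cathepsin genes and Serpinf1, because lysosomal genes often carry the letters CACGTG, the core of the element bound by Tfeb and its relatives, near their start. Each line gives the 250 bases before the start, from RefSeq on GRCm38.p6, written 5' to 3' along the gene, with CACGTG in capitals. Ctsa, Ctsd and Ctsf are shown as cathepsins that hold the letters, and Ctsk and Serpinf1 as the genes with the largest difference in their families, which do not.
Ctsa (chr2:164833523-164833772, plus strand, the second of 2 listed starts): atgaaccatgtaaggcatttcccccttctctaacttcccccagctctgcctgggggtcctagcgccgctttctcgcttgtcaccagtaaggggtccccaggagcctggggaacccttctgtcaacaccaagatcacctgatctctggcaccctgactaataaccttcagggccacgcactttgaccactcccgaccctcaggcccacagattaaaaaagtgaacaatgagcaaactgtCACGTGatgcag
Ctsd (chr7:142387828-142388077, minus strand): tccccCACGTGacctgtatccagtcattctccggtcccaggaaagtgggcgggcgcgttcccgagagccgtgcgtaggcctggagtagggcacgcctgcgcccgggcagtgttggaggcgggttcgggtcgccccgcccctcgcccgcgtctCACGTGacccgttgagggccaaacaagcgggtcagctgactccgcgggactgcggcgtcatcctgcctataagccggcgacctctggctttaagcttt
Ctsf (chr19:4854915-4855164, plus strand): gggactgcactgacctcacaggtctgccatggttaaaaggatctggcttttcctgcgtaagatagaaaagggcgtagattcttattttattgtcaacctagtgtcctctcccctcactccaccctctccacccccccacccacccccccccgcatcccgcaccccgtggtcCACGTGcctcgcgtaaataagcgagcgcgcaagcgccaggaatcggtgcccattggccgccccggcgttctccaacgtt
Ctsk (chr3:95498960-95499209, plus strand): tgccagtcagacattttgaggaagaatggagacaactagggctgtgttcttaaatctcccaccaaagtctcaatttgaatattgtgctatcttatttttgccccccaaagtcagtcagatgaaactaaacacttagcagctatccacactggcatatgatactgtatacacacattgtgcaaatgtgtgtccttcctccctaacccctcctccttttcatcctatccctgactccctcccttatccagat
Serpinf1 (chr11:75422624-75422873, minus strand): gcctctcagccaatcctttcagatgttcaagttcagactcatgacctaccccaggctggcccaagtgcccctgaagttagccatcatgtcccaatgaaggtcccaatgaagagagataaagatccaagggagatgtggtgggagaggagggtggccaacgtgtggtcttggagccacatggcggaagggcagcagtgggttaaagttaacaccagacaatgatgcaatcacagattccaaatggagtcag
The letters begin 12 bases before the start in Ctsa, 79 in Ctsf, and 245 and 98 in Ctsd. The window of the first listed Ctsa start does not hold the letters, and a gene was counted if any of its windows did. CACGTG reads alike on both strands. It was found in 4 of the 9 tested cathepsins with a window (44.4%), the further one being Ctsl, at 236 bases before its start. It was found in 9 of 29 tested genes of the lysosomal list (31.0%), in 0 of 6 tested serpins and in 6.86% of 27025 genes with a window. Cstf1, which was higher in satellite cells, also holds it, 74 bases before its start. The longer TCACGTGA, which contains it, was in 2 of the 9 cathepsins and in 0.907% of genes. Differences of the 4 cathepsins with CACGTG were 0.84 to 1.68, and those of the 5 without it were -0.28 to 3.69. Windows were matched for 20 of the 25 tested genes, with none for Ctsb, Cstb, Ctsh, Ctse and Serpinb1a. A match describes the letters in this window and shows no binding.

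Ctss, Ctse and Ctsg differed between arrays of the same population far more than between populations. Ctss encodes cathepsin S, a protease of antigen-presenting cells that cuts the invariant chain of MHC class II, and lay at 8.98, 6.15 and 4 in PICs, against 9.23, 5.64 and 5.09 in satellite cells. Ctse, an aspartic protease of the endosomes of immune and stomach cells, lay at 7.97, 3.81 and 4.09 in PICs, against 7.61, 3.46 and 5.52 in satellite cells. Ctsg encodes cathepsin G, a serine protease of neutrophil granules, and lay at 6.82, 2.81 and 2.58 in PICs, against 7.38, 2.58 and 2.58 in satellite cells. The array numbered 1 was the highest in both populations for all 3 genes. Ctsg was above the low value level on these arrays alone and was therefore not tested. Ctss differed between populations by -0.28 (95% interval -3.98 to 3.42, adjusted p = 0.896) and Ctse by -0.25 (95% interval -3.68 to 3.19, adjusted p = 0.901). With the replicate number as a block, which takes up the shared height of the arrays numbered 1, the interval was -1.11 to 0.56 for Ctss (limma, adjusted p = 0.482) and -1.31 to 0.82 for Ctse (adjusted p = 0.622). Between arrays of equal number, Ctss differed by -0.25, 0.51 and -1.09 and Ctse by 0.35, 0.35 and -1.44, so neither gene had 1 direction over the 3 pairs.

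Summed markers of white blood cells, like these 3 genes, were highest on the array numbered 1 in both populations. From replicate 2 to replicate 3 the summed markers fell in both populations. Ctse rose instead, from 3.81 to 4.09 in PICs and from 3.46 to 5.52 in satellite cells. The 13 neutrophil and mast cell markers summed to an intensity of 19450, 1389 and 188 in PICs, against 24862, 867 and 291 in satellite cells. On the arrays numbered 1 of PICs and of satellite cells, 11 of the 13 were above the low value level, and on the others 5 to 8 were. The neutrophil gene S100a8 lay at 12.79, 8.92 and 4.75 in PICs, against 13.02, 8.27 and 5.21 in satellite cells. The 16 macrophage markers summed to 3151, 461 and 194 in PICs, against 4071, 295 and 216 in satellite cells. Of these 16, Aif1, Cx3cr1 and Itgam were under the low value level on every array. None of the 8 neutrophil and mast cell markers or 7 macrophage markers tested was called, with medians of -0.10 and 0.05. Their part in Ctss, Ctse, Ctsg and Serpinb1a was not tested. With the arrays numbered 1 left out of both populations, a setting chosen after seeing the data, 14 members were called higher in PICs, all among the 15. Over all genes tested, that setting called 1833 of 10855 higher in PICs.

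**Figure D4:**
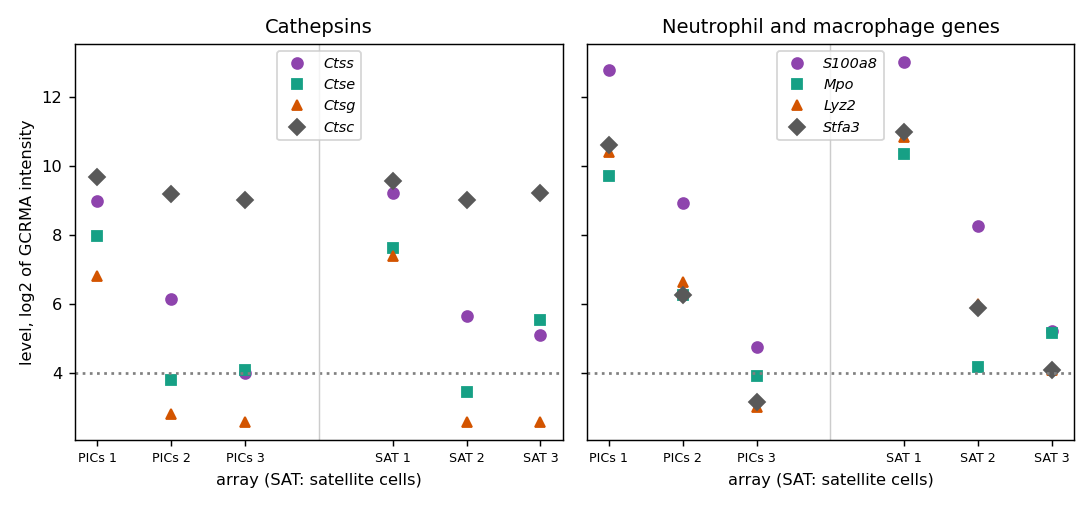
Level (log2 of GCRMA intensity, vertical axis) on each of the 6 arrays for Ctss, Ctse, Ctsg and Ctsc (left) and for the white blood cell genes S100a8, Mpo, Lyz2 and Stfa3 (right), with the low value level dotted. On the arrays numbered 1, Ctsg reached 6.82 in PICs and 7.38 in satellite cells and was at 2.81 or lower elsewhere, while Ctsc stayed between 9.00 and 9.69.

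Both tested cystatins were called higher in PICs, where 16.7% of all genes tested were. Cst3 encodes cystatin C, the main secreted inhibitor of cysteine cathepsins, and lay at 12.87, 12.98 and 12.54 in PICs, against 11.32, 10.90 and 11.21 in satellite cells. The populations did not overlap, and the difference was 1.65 (95% interval 1.23 to 2.07, adjusted p = 0.00038). Cstb encodes stefin B, which blocks cathepsins in the cytosol, and lay at 11.32, 11.71 and 12.21 in PICs, against 10.80, 10.63 and 10.67 in satellite cells. PIC arrays were more spread, and the difference was 1.05 (95% interval 0.50 to 1.60, adjusted p = 0.00831). It was 0.82, under the threshold, without PICs replicate 3, and a second probe set gave 0.84. The other 10 cystatins (Cst6, Cst7, Cst9, Cst10, Cst11, Cst12, Cst13, Csta1, Cstdc1 and Cstdc2) were under the low value level on every array, with a highest level of 3.70 for Cst7 in satellite replicate 1.

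Of the related inhibitors outside the symbol rule, 6 were tested and 2 were called, both higher in PICs, with a median difference of 0.06 over the 6. Calls in either direction were made for 29.8% of all genes tested, so this share is near the background. Latexin (Lxn), an inhibitor of carboxypeptidases with a cystatin-like fold, lay at 10.59, 10.92 and 11.05 in PICs, against 8.62, 8.22 and 8.48 in satellite cells, a difference of 2.41. Calpastatin (Cast), the inhibitor of calpains, differed by 1.10. Stfa3, a stefin of mouse, lay at 10.60, 6.27 and 3.17 in PICs, against 10.98, 5.88 and 4.09 in satellite cells. Like Ctsg, it was highest on the array numbered 1 in each population, and it was not called (-0.30, adjusted p = 0.926).

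The Cstf genes entered by name alone and went the other way. Cstf1 lay at 6.74, 6.81 and 6.81 in PICs, against 8.08, 8.22 and 8.09 in satellite cells, a difference of -1.35 (95% interval -1.59 to -1.10, adjusted p = 0.000141). Cstf3 lay at 8.31, 8.23 and 9.12 in PICs, against 9.46, 9.54 and 9.79 in satellite cells, a difference of -1.05 (adjusted p = 0.0132). It missed the threshold of size when PICs replicate 1 (-0.92), PICs replicate 2 (-0.88) or satellite replicate 3 (-0.95) was left out, and its second probe set gave -0.61. Cstf2 (-0.90, adjusted p = 0.00093) and Cstf2t (-0.61, adjusted p = 0.0113) were lower in PICs by less than 2-fold on the probe sets used. Of the other 2 Cstf2 probe sets past the filter, both dimmer, one gave -1.43 and was called higher in satellite cells (adjusted p = 0.00584 over probe sets), and one gave -0.57 and was not called. In each of the 4 genes all PIC arrays lay below all satellite arrays, as in 33.2% of all genes tested.

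Probe sets of the same gene gave the same sign. Of the 25 genes, 11 had more than 1 probe set past the filter, with 27 probe sets in all. Of these 27, 16 were called higher in PICs, where 15.1% of all probe sets tested were, and 2 higher in satellite cells, where 12.8% were. The widest range was in Ctsb, at 0.85 to 1.93. PIC arrays all lay above satellite arrays in 18 of the 25 genes, a separation seen in 31.3% of all genes tested. The 18 include Serpinb1b and Serpinb6c, which passed the filter only through their PIC arrays, so their separation was fixed by the filter.

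**Figure D5:**
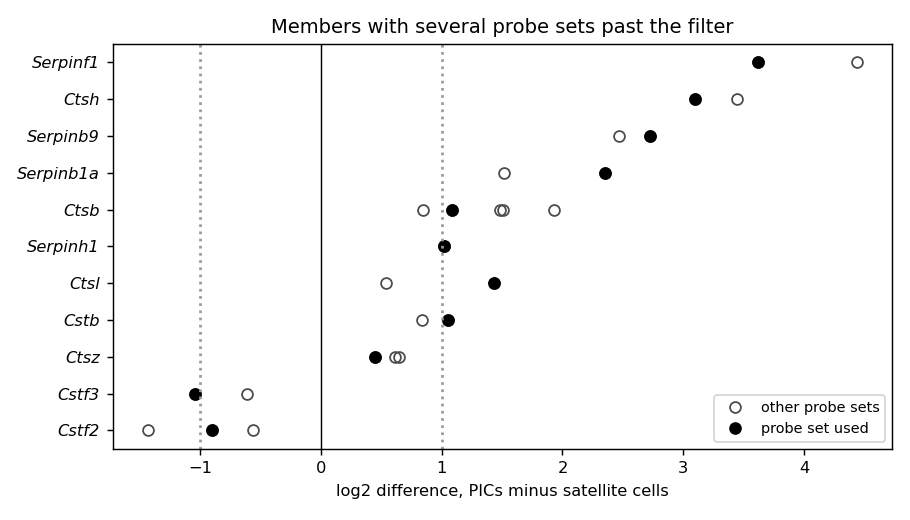
Log2 difference, PICs minus satellite cells (horizontal axis), of each probe set past the filter for the 11 genes with more than 1, with the probe set used filled and the others open. Probe sets of a gene lie on the same side of 0 in each of the 11 genes, and those of Ctsb range between 0.85 and 1.93.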

How the data were processed

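Total RNA of 3 PIC and 3 satellite cell samples was hybridised to 1-colour Affymetrix arrays, per the labels. The deposited values are linear intensity values from GCRMA, per the submitters' processing notes, and are whole numbers that start at 2, with each array's median at 10. GCRMA corrects background by probe sequence and applies quantile normalization, and its version is not given in the sources used here. It draws unexpressed probe sets towards a floor, which narrows their spread. Scanner files and scan dates were not used here, and the number of arrays limits precision.

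Of 45037 probe sets, 34945 had 1 gene symbol in the platform annotation, updated by gene number to RefSeq names. Of these, 18433 exceeded a log2 intensity of 4 (16 linear) on at least 3 arrays, and the one with the highest mean over 6 arrays stood for each of 10855 genes. Population differences were fitted by lmFit and eBayes of limma 3.58.1 under R 4.3.3, with two-sided p-values adjusted by Benjamini and Hochberg's method over every gene tested. The procedure was tested on simulated data with independent normal noise, with changes added only to genes well above the low value level. The simulation had no floor and no height shared by arrays of equal number, so it does not test calls near the low value level. Where all arrays of a population were at or under 4, a fold is a bound against 4. Alternatives changed the filter, probe set choice, log scale, variance model, normalization and arrays used.

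The members, lists and tests were chosen with earlier results of these data known. All called members are named, along with up to 4 called genes of largest difference per list. Exceptions named after their values were seen are the untested serpins other than Serpinb6b, F2r, Plau, Plg, F2, Tfeb, Stfa3, Glb1, Neu1 and the markers. Replicate numbers are shared by both populations. Deviations from the population mean correlated across genes at 0.623, 0.222 and 0.579 for equal numbers and at -0.568 to 0.0363 for unequal ones, so the numbers were taken to pair the arrays. This pairing comes from the data, and the labels do not state it. Deviations from a population mean cancel out over its arrays, so the values for equal and unequal numbers are not independent. The height of white blood cell genes on the arrays numbered 1 was not taken out.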

Additional observations from a re-analysis of the deposited data

How the results depend on the processing

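The count of members called higher in PICs was 15 of 25 tested, where 16.7% of all genes tested were. With the replicate block it was 15, with 2 in satellite cells, and the block changed the call of none of the 25 tested genes, although it narrowed the intervals of Ctss and Ctse. Leaving out 1 array at a time gave 12 to 15 in PICs and 1 to 2 in satellite cells. Over all 10855 genes, these settings gave 1705 to 1847 in PICs and 1328 to 1466 in satellite cells. Without probe sets marked _x, _s, _a or _f, 19 members were tested and the count in PICs was 9, against 1559 of all 9272 genes tested. Cst3, Serpinb6a, Serpinb6c and Serpinh1 were not tested under that setting, while Cstb and Ctsl were tested and lost their call. The count in satellite cells was 1 under that setting, without the filter on low values, with the mean of probe sets, with arrays numbered 2 and 3 only, and without probe sets marked _x, _s or _f, since Cstf3 was no longer called. The last 2 settings were chosen after seeing the data. Of 390 differences recomputed for single genes, 355 kept their direction and call, 27 lost the call and 8 changed sign. All 8 sign changes were in uncalled genes: Ctsc without PICs replicate 1 (-0.16), without satellite replicate 2 (-0.09) and with arrays numbered 2 and 3 only (-0.0084), Ctse without PICs replicate 2 (0.49), without PICs replicate 3 (0.35) and without satellite replicate 1 (0.80), and Ctss without PICs replicate 3 (0.91) and without satellite replicate 1 (1.01). Over all arrays left out in turn, the range was -0.16 to 0.19 for Ctsc, -1.59 to 0.80 for Ctse and -1.58 to 1.01 for Ctss. The genes that lost a call in some setting were Serpinb1a, Serpinb6a, Serpinb6c, Serpinh1, Cstb, Ctsl and Cstf3. Ctsl lost it with the mean of probe sets (0.99) and with its dimmer probe set (0.54), and Serpinb6c on the scale of the value plus 16 (0.97), where Serpinb1b was still called but at 1.74 in place of 3.25. Genes near the low value level rest on coarse whole-number steps.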
